A study of Mus musculus with 9 samples.

Results

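The splicing factor families described here are the genes whose symbols begin with Srsf, Snrp, Hnrnp, Sf3a, Sf3b or U2af followed by a family number or letter. They were chosen by name, with earlier results of these data known. They number 55 of the 24532 genes in the deposited table: 11 SR protein genes (Srsf1 to Srsf7 and Srsf9 to Srsf12), 20 heterogeneous nuclear ribonucleoprotein (hnRNP) genes, 12 Snrp genes for proteins of the small nuclear ribonucleoproteins (snRNPs), 9 SF3 genes and 3 U2AF genes. Together they are represented by 116 of the 36780 transcripts listed. Of the 55, 53 had enough reads to be tested. Srsf12, with 0 to 14 reads per library, and Snrpn, the imprinted gene for a brain form of the Sm protein B, with 0 to 2 reads, did not.

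Splicing removes introns from transcripts in a complex, the spliceosome, that is assembled anew on each intron. U2af1 and U2af2 read the 3′ end of the intron, the SF3A and SF3B proteins of the U2 snRNP hold the branch point, and the Sm proteins form a ring around each spliceosomal RNA. SR proteins bind exons and favour their inclusion, and many hnRNPs bind the same transcripts and favour skipping. SR genes control their own level through a cassette exon with a stop codon, often called a poison exon: when it is included, the transcript is marked for nonsense-mediated decay. SF3B1, SRSF2 and U2AF1 are the splicing genes most often mutated in human myelodysplastic syndromes, disorders of the marrow lineage that makes neutrophils.

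The cells were sorted neutrophils of wild type C57BL/6 mice, taken from bone marrow, blood or lung, with 3 biological replicates per tissue, so that 9 libraries of polyA RNA were compared. All groups share strain and genotype, no treatment is labelled, and the labels give neither sorting markers, nor the age of the mice, nor whether tissues with 1 replicate number came from 1 mouse. The libraries held 42045548 to 56796219 reads, and the 55 members took 0.518% to 0.553% of these in bone marrow, 0.647% to 0.749% in blood and 0.672% to 0.727% in lung. Levels are given below in CPM, the reads of a gene per 1000000 of the library total after scaling with edgeR's trimmed mean of M values (factors 0.776 to 1.26).

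The label neutrophil was checked against 8 neutrophil markers, none at 0 in any library. They summed to 81401, 91659 and 119440 CPM in bone marrow replicates 1 to 3, 32397, 29773 and 43113 CPM in blood and 20813, 22995 and 38422 CPM in lung. Why the sums differed between tissues was not tested, and they do not measure purity. Genes of granulocyte precursors (8 of 8 in the table) summed to 18447 to 23773 CPM in bone marrow and to 191 to 383 CPM in blood and lung, where 1 or 2 of them were at 0 in each library. Fibroblast markers (7 of 7, with 0 to 2 at 0 outside lung) reached 1653, 1342 and 96.7 CPM in lung replicates 1 to 3 against 7.16 to 161 CPM elsewhere, and no gene of the list was at 0 in a lung library. Lung epithelial markers (8 of 8) were at 903, 285 and 76.7 CPM in lung replicates 1 to 3 and at 14.9 to 90.8 CPM elsewhere. Macrophage markers (8 of 8) were at 1050.5, 1243 and 284 CPM in lung, 993, 862 and 1158 CPM in bone marrow and 239, 231 and 208 CPM in blood. Of these 8 genes, 0, 0 and 1 were under 1 CPM in lung replicates 1 to 3. In bone marrow 5, 4 and 2 were, and in blood 3, 4 and 5, so sums of this list rest on different genes by tissue. Monocyte markers (8 of 8, none at 0) were at 2538, 3186 and 3554 CPM in lung, above the 1749 to 2316 CPM of bone marrow and the 1796 to 2378 CPM of blood. Lung replicate 3 thus stood apart from the other lung libraries by lower fibroblast and macrophage markers and had the highest monocyte markers. B cell markers (7 of 8 in the table, none at 0 in any library) were at 413 to 462 CPM in replicates 1 and 2 of blood and lung and at 69.2 and 47.3 CPM in replicate 3 of each.

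Srsf3 and Srsf7 had the transcript with the cassette exon as an entry of its own in the table, and the start of that exon is shown because the transcript results below turn on it. In Srsf3 it is exon 4 of 7, the 456 bases at chr17:29039454-29039909 on the plus strand of mm10, and in Srsf7 exon 4 of 9, the 460 bases at chr17:80204622-80205081 on the minus strand. Each line gives the last 30 bases of exon 3 and then what follows in the spliced RNA, 5′ to 3′ from GENCODE M21, with the in-frame stop codon in capitals.
Srsf3 with the cassette exon: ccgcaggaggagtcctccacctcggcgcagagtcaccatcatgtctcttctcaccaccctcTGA
Srsf3 without the cassette exon: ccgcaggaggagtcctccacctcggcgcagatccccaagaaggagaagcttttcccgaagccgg
Srsf7 with the cassette exon: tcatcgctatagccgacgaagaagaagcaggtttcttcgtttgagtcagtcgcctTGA
Srsf7 without the cassette exon: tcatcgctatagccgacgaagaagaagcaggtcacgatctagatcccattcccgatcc
Read into the cassette, the frame ends 34 bases into the Srsf3 exon and 28 bases into the Srsf7 exon, stop codon included, after 124 and 137 residues. Without it, translation runs on into the next exon. GENCODE types both cassette transcripts as nonsense-mediated decay, and RefSeq lists them as non-coding.

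Per length of transcript, Srsf5 was the most abundant member. Its summed FPKM (a level per transcript length and library depth, from the authors) was 457 ± 12.8 (mean ± SD, n = 3) in bone marrow, 601 ± 204 in blood and 502 ± 31.2 in lung. Sf3b1, the branch-point scaffold of the U2 snRNP, came next at 120.3 ± 6.27, 143 ± 4.69 and 259 ± 20.9 FPKM. Hnrnpk, a cytosine-binding hnRNP, averaged 115 FPKM over the 9 libraries and Hnrnpa2b1 109.5 FPKM. These were the 4 members with a mean over 100 FPKM. At the other end 7 members averaged under 5 FPKM, among them Snrpa1 (2.51), Snrpd1 (4.69) and Sf3a1 (3.44). Within 1 complex the levels were uneven: the same libraries that held Sf3b1 at a mean of 174 FPKM held Sf3b3 at 9.14 and Sf3a3 at 6.20. FPKM is not scaled for library composition and is used here only to order genes.

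A minority of members differed between tissues, in both directions and within the same family. Among the 53 tested, 17 differed among the 3 tissues (32.1%, edgeR quasi-likelihood F test, adjusted p under 0.05), against 46.1% of all 13510 genes tested. From bone marrow to blood 5 members rose and 1 fell, where 8.34% of all genes rose and 13.1% fell. From blood to lung 5 rose and 8 fell (13.2% and 15.7% of all genes), and from bone marrow to lung 9 rose and 7 fell (15.6% and 22.6% of all genes). The median log2 fold change of the members was 0.01, 0.125 and 0.05 in the 3 comparisons, beside -0.05, 0.05 and 0.06 over all genes. These shares lie near or below those of all genes, so what follows describes single members. In bulk RNA, a change in the level per cell and a change in the mix of cells sorted cannot be told apart.

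The split between higher and lower calls depended on how libraries were scaled. Upper-quartile scaling moved the median of all genes up by 0.15, 0.16 and 0.32 (log2), and gave 9 higher and 1 lower in blood against bone marrow, 9 and 4 in lung against blood, and 17 and 4 in lung against bone marrow. Over all 13510 genes it called 1695 higher and 1527 lower, 2194 and 1731, and 3105 and 2130. The main fit called 1127 and 1765, 1780 and 2120, and 2108 and 3050. DESeq2 gave 7 and 2, 7 and 5, and 14 and 5. Over all genes DESeq2 called 1599 higher and 1999 lower, 2472 and 1840, and 3145 and 2603. With the replicate number as a block, 9 members were higher and 11 lower in lung against blood, and 13 higher and 9 lower in lung against bone marrow, and no member call of the fit without it was lost. Over all genes the blocked fit called 2073 higher and 2678 lower, and 2454 and 3519. Leaving out 1 library moved the number of members that differed among tissues from 17 to as few as 9 (without blood replicate 2) and as many as 24 (without lung replicate 3). Over all genes 6223 of 13510 differed with all libraries, 4789 of 14522 without blood replicate 2 and 8397 of 14607 without lung replicate 3. Counts over all genes thus moved between fits as well, and nothing particular to the members is read from these moves. Of the 35 calls in the 3 comparisons, 11 passed in every fit run, including those that left out any 1 of the 9 libraries: Srsf1 and Srsf10 in blood against bone marrow, Hnrnpll in lung against blood, and Srsf1, Srsf10, Hnrnpa3, Hnrnpab, Hnrnpl, Hnrnpll, Sf3b2 and Snrpb in lung against bone marrow. The authors' RSEM expected counts, deposited for blood and lung only, could not be fitted for calls against bone marrow. In those counts Hnrnpa3 did not pass in lung against blood.

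**Figure D1:**
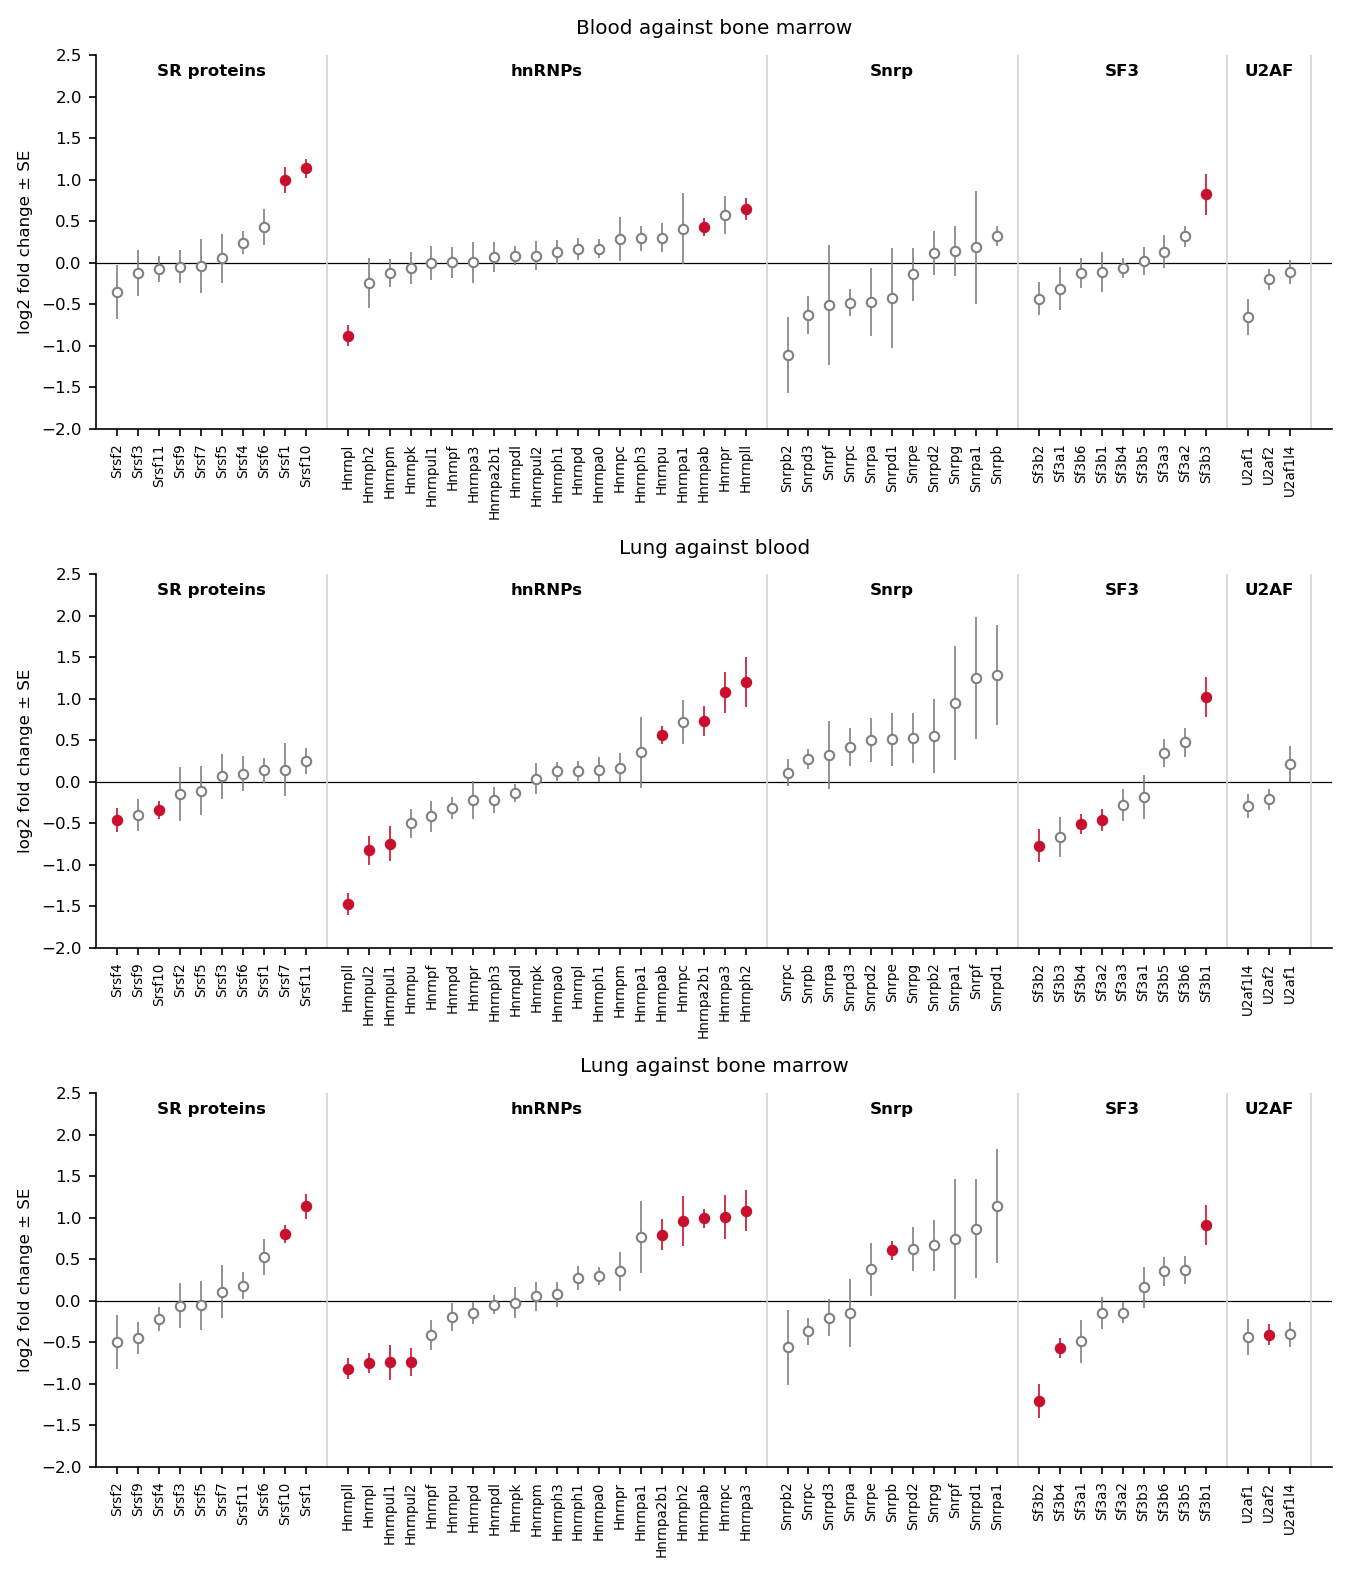
Log2 fold change (± SE) of the 53 tested members, grouped by family, in each of the 3 comparisons; filled red points passed edgeR's test at an adjusted p under 0.05. Srsf1 and Srsf10 lie at 1.00 and 1.14 in blood against bone marrow, and Hnrnpll at -1.47 in lung against blood.

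Among the SR genes, Srsf1 and Srsf10 were about 2 times as high outside the bone marrow as within it, and the rest did not pass against bone marrow. Srsf1, the founding SR protein and a general activator of weak exons, was at 42.7, 39.1 and 42.7 CPM in bone marrow replicates 1 to 3, 82.1, 71.8 and 94.8 CPM in blood and 79.6, 89.9 and 105 CPM in lung. Every blood and lung library lay above every bone marrow library. It rose 2.0-fold in blood (log2 fold change 1.00 ± 0.15 SE, edgeR adjusted p = 0.00213) and 2.2-fold in lung (log2 fold change 1.14 ± 0.15 SE, edgeR adjusted p = 0.000510). Srsf10, an SR protein whose dephosphorylated form represses splicing during heat shock, was at 25.1, 24.9 and 23.4 CPM in bone marrow replicates 1 to 3, 49.5, 52.6 and 59.7 CPM in blood and 41.7, 43.0 and 43.4 CPM in lung. The 3 tissues did not overlap, with lung between bone marrow and blood. It rose 2.2-fold in blood (log2 fold change 1.14 ± 0.11 SE, edgeR adjusted p = 0.000220) and 1.75-fold in lung against bone marrow (log2 fold change 0.80 ± 0.11 SE, edgeR adjusted p = 0.000675). From blood to lung Srsf10 fell by 0.34 on the log2 scale (SE 0.11, edgeR adjusted p = 0.05 after rounding up), a call at the edge of the threshold that held in 1 of the 9 fits leaving out a library (edgeR adjusted p 0.0348 without lung replicate 3, and 0.0640 to 0.395 without any other) and in 1 of 8 alternative fits, the replicate block, with an adjusted p of 0.264 in DESeq2.

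Srsf4, a large SR protein, was at 41.1, 46.7 and 48.9 CPM in bone marrow replicates 1 to 3, 54.3, 51.1 and 56.5 CPM in blood and 44.7, 40.5 and 32.4 CPM in lung. All 3 lung libraries were below all 3 blood libraries, and lung replicate 3 was lowest. It fell by 0.46 on the log2 scale from blood to lung (SE 0.14, edgeR adjusted p = 0.0383). The call was lost without bone marrow replicate 2 (0.0589), blood replicate 1 (0.0762), 2 (0.0543) or 3 (0.105) or lung replicate 2 (0.0719). It held in 3 of 8 alternative fits, and was lost with upper-quartile scaling (0.201), no filter (0.0536), limma on log2(FPKM + 1) (0.0805), the 6-library fit (0.0906) and the RSEM counts (0.0964). In all, 2 of 10 tested SR genes rose and none fell in blood against bone marrow, none rose and 2 fell in lung against blood, and 2 rose and none fell in lung against bone marrow. In edgeR's fit 0, 0 and 1 SR genes had an unadjusted p under 0.05 in these 3 directions without a call, and DESeq2 and limma-voom called none there. Over all genes 8.34% rose and 13.1% fell, 13.2% rose and 15.7% fell, and 15.6% rose and 22.6% fell in the 3 comparisons.

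Srsf2, Srsf3, Srsf5 and Srsf7 spread more widely within blood than their means differed between tissues. Srsf2, which binds exonic enhancers of both guanine-rich and cytosine-rich sequence, was at 98.9, 119 and 119 CPM in bone marrow replicates 1 to 3, 146, 58.9 and 59.5 CPM in blood and 78.1, 85.9 and 74.9 CPM in lung. Srsf3, the smallest SR protein, was at 172, 159 and 151 CPM in bone marrow replicates 1 to 3, 226, 115 and 102 CPM in blood and 145, 153 and 166 CPM in lung. Srsf5 was at 808, 798 and 930.1 CPM in bone marrow replicates 1 to 3, 1246, 717 and 670.3 CPM in blood and 702, 663 and 1080.1 CPM in lung. Blood replicate 1 was the highest of all 9 libraries for these 3 genes, while blood replicates 2 and 3 lay below every bone marrow library. Srsf7, which shares its binding preferences in part with Srsf3 and also acts in mRNA export, was at 101, 89.7 and 79.5 CPM in bone marrow replicates 1 to 3, 139.7, 52.2 and 71.2 CPM in blood and 81.9, 97.2 and 112 CPM in lung. Blood replicate 1 exceeded the mean of blood replicates 2 and 3 by 2.47 times for Srsf2, 2.08 for Srsf3, 1.8 for Srsf5 and 2.26 for Srsf7. The RSEM expected counts, deposited for blood and lung only and scaled to the library total, gave ratios of 2.31, 1.70, 1.43 and 2.08.

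Srsf6, Srsf9 and Srsf11 passed in no comparison either, and the log2 fold changes of the 7 SR genes without a call lay between -0.50 and 0.53. With the replicate block Srsf6 was called higher in lung against bone marrow (edgeR adjusted p = 0.0349).

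Blood replicate 1 was the highest blood library for 6 of 10 tested SR genes and for 18 of all 53 tested members. The same count over all genes was not made. Proliferation markers (8 of 8 in the table) summed to 224 CPM in blood replicate 1, beside 57.4 and 19.7 CPM in blood replicates 2 and 3. Of these 8 genes, 4, 4 and 6 were under 1 CPM in blood replicates 1 to 3, so the sums rest on part of the list. B cell markers summed to 429 CPM in blood replicate 1, beside 413 and 69.2 CPM. The part of both lists in these levels was not tested. None of the 4 genes passed between tissues (edgeR adjusted p 0.495 for Srsf2, 0.798 for Srsf3, 0.924 for Srsf5 and 0.954 for Srsf7 in blood against bone marrow). Without blood replicate 1 the Srsf2 difference passed, at a log2 fold change of -0.83 and an edgeR adjusted p of 0.0312, and the other 3 did not (0.235, 0.795 and 0.382).

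**Figure D2:**
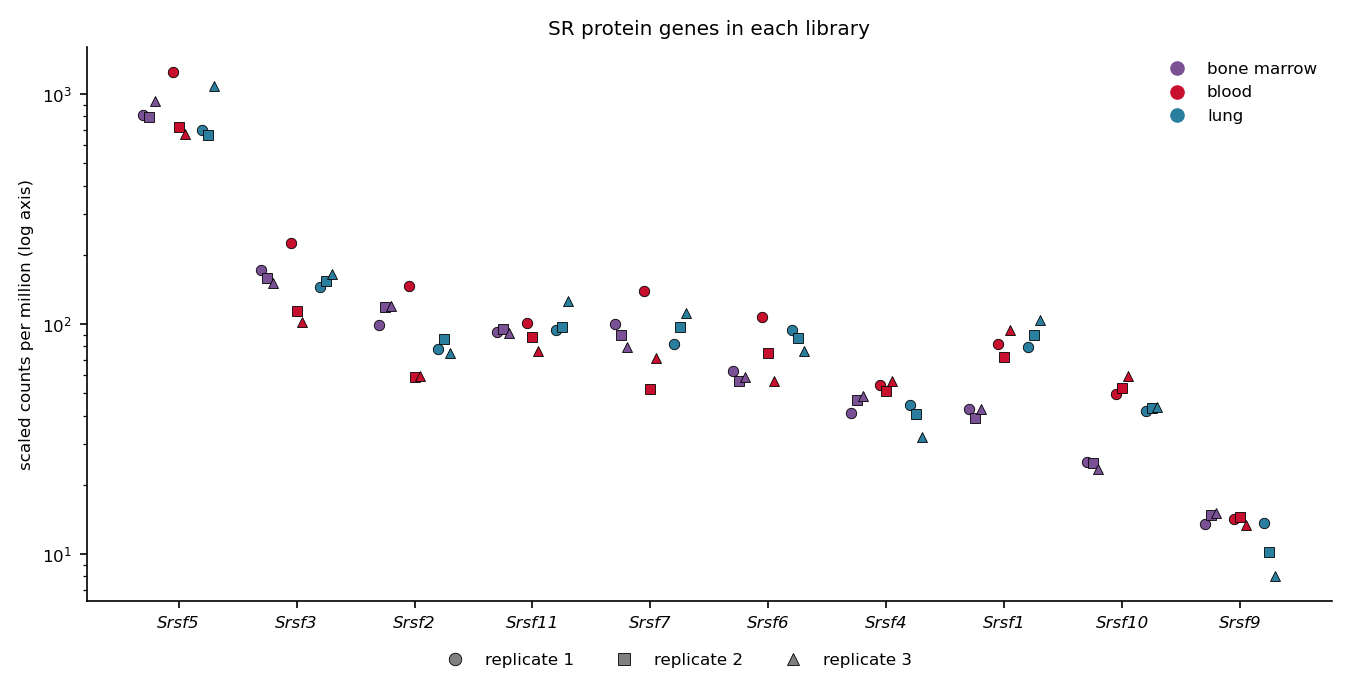
Level (CPM, log axis) of the 10 tested SR genes in each of the 9 libraries, coloured by tissue, with the replicate number as the marker shape. The red circle, blood replicate 1, lies above all other libraries for Srsf2, Srsf3, Srsf5 and Srsf7, while Srsf1 and Srsf10 separate bone marrow from blood and lung.

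The share of Srsf3 RNA in the coding form differed between tissues although its summed level did not pass. The cassette transcript took 68.9, 72.3 and 55.4% of the gene's counts in bone marrow replicates 1 to 3, 96.5, 92.9 and 95.6% in blood and 85.3, 85.5 and 90.0% in lung. The 3 tissues did not overlap, with bone marrow lowest and blood highest. The coding transcript was at 53.5, 44.0 and 67.3 CPM in bone marrow, 7.83, 8.17 and 4.53 CPM in blood and 21.3, 22.3 and 16.6 CPM in lung, and its mean was 8.03 times as high in bone marrow as in blood.

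Usage of transcripts within genes was tested with edgeR over all 9391 transcripts of genes with several. The coding Srsf3 transcript fell relative to its gene from bone marrow to blood by 1.98 on the log2 scale (edgeR adjusted p = 0.00553). It was 1 of 76 member transcripts tested, from 24 genes, and the only member transcript called in that comparison, where 0.213% of all transcripts were called. None was called in lung against blood or in lung against bone marrow, where 1 and 2 member transcripts had an unadjusted p under 0.05 and 0.202% and 0.266% of all transcripts were called. The coding Srsf3 transcript had an edgeR adjusted p of 0.618 and 0.606 there. The call was lost without bone marrow replicate 3 (0.0618), blood replicate 1 (0.167) or blood replicate 3 (0.0673). How the authors shared reads between overlapping transcripts is not stated in the labels, and the uncertainty of that step is not in these p-values, which are therefore too small. The usage test was added after the shares had been seen.

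In Srsf7 the cassette transcript was also the main form, and it passed the usage test in no comparison. It took 76.1, 77.8 and 66.2% of counts in bone marrow replicates 1 to 3, 85.7, 77.5 and 81.2% in blood and 73.2, 73.5 and 77.1% in lung. Bone marrow overlapped both other tissues. Among other members, variant 2 of Srsf1 took 49.6, 52.5 and 48.4% of the gene's counts in bone marrow, 72.0, 70.5 and 67.6% in blood and 70.2, 74.5 and 72.9% in lung. Variant 1 of Srsf5 took 22.5, 23.8 and 22% in bone marrow, 39.0, 43.8 and 38.5% in blood and 31.7, 31.1 and 29.7% in lung. Bone marrow was below the other tissues without overlap in both genes, and neither transcript passed the usage test. The transcript of Hnrnpa2b1 that GENCODE types as nonsense-mediated decay ranged from 30.2% to 46.7% in 8 libraries and stood at 60.4% in blood replicate 1.

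**Figure D3:**
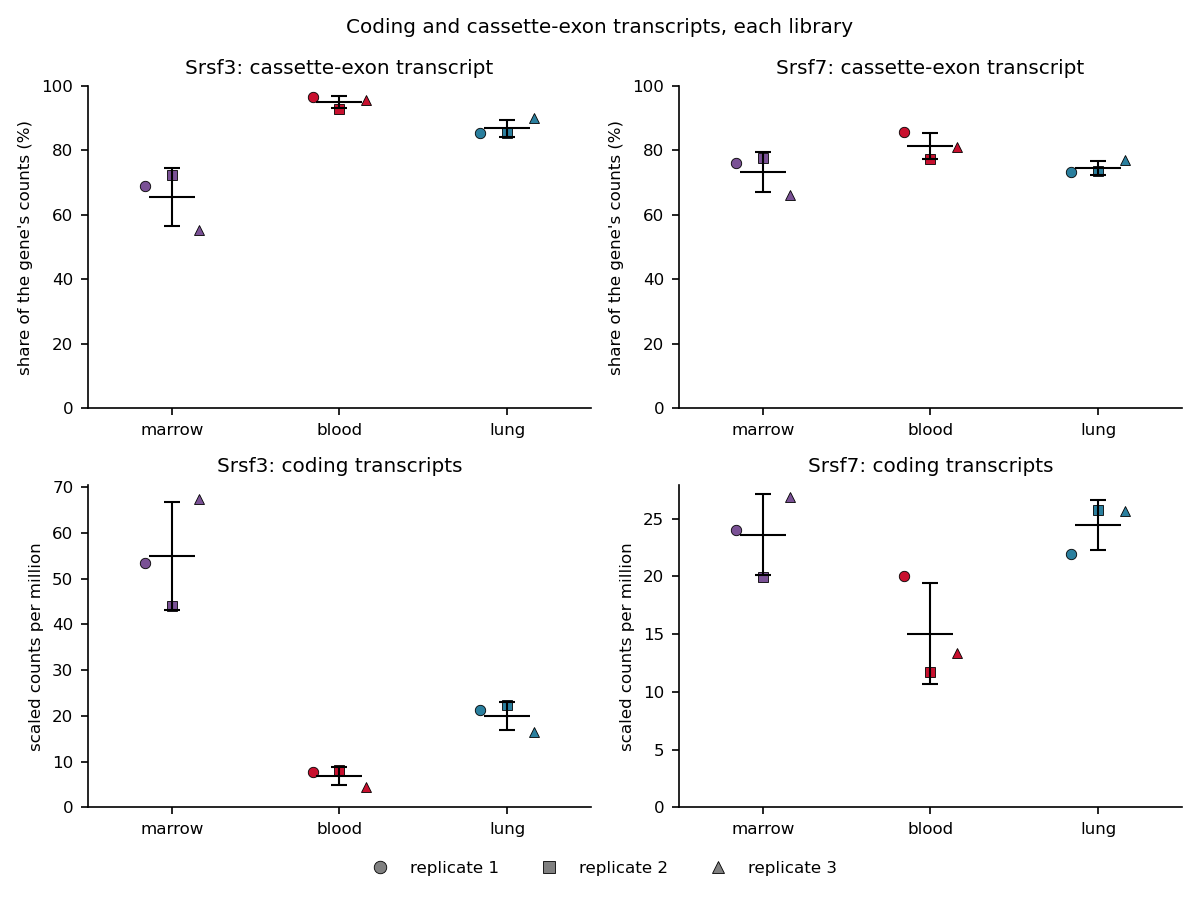
Share of the gene's counts taken by the cassette-exon transcript (upper row, percent) and summed level of the coding transcripts (lower row, CPM) of Srsf3 and Srsf7 in each library; bars are the mean ± SD of 3 libraries. The Srsf3 share runs from 55.4% in bone marrow replicate 3 to 96.5% in blood replicate 1, while the Srsf7 share stays between 66.2% and 85.7%.

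Of the 20 hnRNP genes, Hnrnpl fell outside the bone marrow and Hnrnpll peaked in blood. Hnrnpa2b1, Hnrnpa3, Hnrnpab and Hnrnph2 were called higher in lung than in both other tissues. Against bone marrow 2 hnRNP genes rose and 1 fell in blood, and 5 rose and 4 fell in lung. Against blood 4 rose and 3 fell in lung. Over all genes 8.34% rose and 13.1% fell in blood against bone marrow, 15.6% and 22.6% in lung against bone marrow, and 13.2% and 15.7% in lung against blood. Nothing particular to the family is read from the counts. The median log2 fold change of the 20 was 0.11 in blood against bone marrow, 0.08 in lung against blood and 0.07 in lung against bone marrow.

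Hnrnpl, which binds CA repeats and both represses and activates exons, was at 187, 185 and 208 CPM in bone marrow replicates 1 to 3, 106, 101 and 108 CPM in blood and 115, 122 and 109 CPM in lung. Bone marrow lay above every other library. It fell 1.84-fold in blood (log2 fold change -0.88 ± 0.12 SE, edgeR adjusted p = 0.00144) and 1.68-fold in lung (log2 fold change -0.75 ± 0.12 SE, edgeR adjusted p = 0.00159). On log2(FPKM + 1) with limma the call in blood was lost (adjusted p = 0.0582). Its paralogue Hnrnpll, the factor that switches Ptprc (CD45) splicing in activated T cells, was at 62.9, 65.6 and 65.2 CPM in bone marrow replicates 1 to 3, 92.8, 94.7 and 117 CPM in blood and 34.2, 35.8 and 40.1 CPM in lung. The 3 tissues did not overlap, with blood highest and lung lowest. It rose 1.57-fold from bone marrow to blood (log2 fold change 0.65 ± 0.13 SE, edgeR adjusted p = 0.00844), and in lung it was 2.77-fold lower than in blood (log2 fold change -1.47 ± 0.13 SE, edgeR adjusted p = 0.000258) and 1.76-fold lower than in bone marrow (log2 fold change -0.82 ± 0.13 SE, edgeR adjusted p = 0.00147). T and NK cell markers (9 of 9, none at 0) were at 65.2, 73.2 and 29.7 CPM in bone marrow replicates 1 to 3. They were at 34.8, 77.8 and 14.9 CPM in blood and 84.6, 94.9 and 14.5 CPM in lung. Their part in the Hnrnpll level was not tested. Of the calls in blood against bone marrow, that of Hnrnpl was lost without blood replicate 2 (0.0575) and that of Hnrnpll without bone marrow replicate 2 (0.0518) or blood replicate 2 (0.0563) or 3 (0.0883).

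Hnrnpab, a close relative of Hnrnpd that binds AU-rich RNA, stepped up from tissue to tissue. It was at 56.1, 50.7 and 52.7 CPM in bone marrow replicates 1 to 3, 73.9, 71.3 and 69.8 CPM in blood and 107, 99.0 and 111 CPM in lung. The 3 tissues did not overlap. It rose 1.35-fold from bone marrow to blood (log2 fold change 0.43 ± 0.11 SE, edgeR adjusted p = 0.0243), 1.48-fold from blood to lung (log2 fold change 0.56 ± 0.11 SE, edgeR adjusted p = 0.00619) and 1.99-fold from bone marrow to lung (log2 fold change 0.99 ± 0.11 SE, edgeR adjusted p = 0.000216). The call in blood against bone marrow was lost without bone marrow replicate 1 (0.0757), 2 (0.147) or 3 (0.101) or blood replicate 1 (0.146), 2 (0.133) or 3 (0.134), and that in lung against blood without blood replicate 1 (0.0888), 2 (0.104) or 3 (0.0874). The first was also lost with no filter (0.0784) and the other with limma on log2(FPKM + 1) (0.0662).

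Hnrnpa2b1, which represses exons and sorts RNAs for transport, was at 189, 204 and 213 CPM in bone marrow replicates 1 to 3, 191, 198 and 246 CPM in blood and 303, 325 and 427 CPM in lung. Each lung library was above every other library, and lung replicate 3 was highest. It rose 1.66-fold against blood (log2 fold change 0.73 ± 0.18 SE, edgeR adjusted p = 0.0161) and 1.74-fold against bone marrow (log2 fold change 0.80 ± 0.18 SE, edgeR adjusted p = 0.00862). Hnrnph2, an X-linked factor that binds runs of G, was at 128, 113 and 152 CPM in bone marrow replicates 1 to 3, 135, 89.5 and 106 CPM in blood and 185, 192 and 386 CPM in lung. Lung was again above all others, and lung replicate 3 was about 2 times as high as lung replicates 1 and 2. It rose 2.30-fold against blood (log2 fold change 1.2 ± 0.30 SE, edgeR adjusted p = 0.0174) and 1.94-fold against bone marrow (log2 fold change 0.96 ± 0.30 SE, edgeR adjusted p = 0.0340). Hnrnpc, which binds uridine tracts and keeps cryptic exons out of mRNA, was at 138, 137 and 229 CPM in bone marrow replicates 1 to 3, 232, 176 and 209 CPM in blood and 290.3, 279 and 446 CPM in lung. Lung did not overlap with either tissue. It rose 2.01-fold against bone marrow (log2 fold change 1.01 ± 0.27 SE, edgeR adjusted p = 0.0168), while against blood it did not pass (edgeR adjusted p 0.0739). For these 3 genes lung replicate 3 had the highest level of all libraries. In the same library fibroblast, macrophage and lung epithelial markers were lowest within lung and monocyte markers, at 2538, 3186 and 3554 CPM in lung replicates 1 to 3, were highest. Their part in these levels was not tested.

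Calls of these 3 genes depended on single libraries and, for Hnrnpa2b1 and Hnrnph2, on the fit. In lung against blood, Hnrnpa2b1 was lost without blood replicate 1 (0.164), 2 (0.155) or 3 (0.0690) and Hnrnph2 without blood replicate 1 (0.0579), 2 (0.106) or 3 (0.0980). In lung against bone marrow, Hnrnpa2b1 was lost without bone marrow replicate 1 (0.0530) or 2 (0.0529), Hnrnpc without bone marrow replicate 1 (0.0824) or 2 (0.0942), and Hnrnph2 without bone marrow replicate 1 (0.107), 2 (0.139) or 3 (0.0631), blood replicate 1 (0.0588), 2 (0.0553) or 3 (0.0601) or lung replicate 3 (0.0747). The call of Hnrnpa2b1 against blood was also lost with no filter (0.0636) and in the 6-library fit (0.0546), and that of Hnrnph2 against bone marrow in the 6-library fit (0.0779).

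Hnrnpa3 and Hnrnpa1, close relatives of Hnrnpa2b1 with near-identical copies elsewhere in the genome, were counted very differently in the authors' 2 kinds of file and are uncertain. Hnrnpa3 was at 75.0, 64.0 and 61.9 CPM in bone marrow replicates 1 to 3, 93.9, 60.1 and 47.8 CPM in blood and 114, 158 and 155 CPM in lung. Lung lay above both other tissues. It rose 2.11-fold against blood (log2 fold change 1.08 ± 0.25 SE, edgeR adjusted p = 0.0121) and 2.12-fold against bone marrow (log2 fold change 1.09 ± 0.25 SE, edgeR adjusted p = 0.00900), but in the RSEM counts the lung against blood difference was 0.57 (log2) with an edgeR adjusted p of 0.211. It was also lost without blood replicate 2 (0.0683) or 3 (0.0746). Hnrnpa1 was at 21.2, 10.1 and 8.23 CPM in bone marrow replicates 1 to 3, 17.0, 13.8 and 21.8 CPM in blood and 14.9, 16.7 and 35.8 CPM in lung and passed in no comparison. Its series counts were 0.28 to 1.03 times its RSEM counts, and those of Hnrnpa3 0.67 to 1.13 times, where 29 tested members had a ratio between 1.8 and 2.2 in all 6 libraries.

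Hnrnpul1 and Hnrnpul2, relatives of Hnrnpu that take part in transcription and the DNA damage response, were lower in lung than in the other tissues. Hnrnpul2 was at 269, 290.0 and 314 CPM in bone marrow replicates 1 to 3, 283, 287 and 357 CPM in blood and 154, 164 and 205 CPM in lung. All lung libraries were below all others. It fell 1.77-fold against blood (log2 fold change -0.83 ± 0.17 SE, edgeR adjusted p = 0.00812) and 1.67-fold against bone marrow (log2 fold change -0.74 ± 0.17 SE, edgeR adjusted p = 0.00979). Hnrnpul1 was at 200.3, 238 and 238 CPM in bone marrow replicates 1 to 3, 198, 224 and 256 CPM in blood and 100.1, 137 and 167 CPM in lung, also without overlap. It fell 1.67-fold against blood (log2 fold change -0.74 ± 0.21 SE, edgeR adjusted p = 0.0257) and 1.67-fold against bone marrow (log2 fold change -0.74 ± 0.21 SE, edgeR adjusted p = 0.0208). Of the alternative fits 4 of 8 kept the Hnrnpul1 call against blood and 3 of 7 that against bone marrow. Neither passed with DESeq2 (0.0573 and 0.0641), and 3 and 2 of 9 fits leaving out a library kept them, with adjusted p up to 0.216 without blood replicate 3 and 0.120 without blood replicate 2. Hnrnpul2 was lost without blood replicate 1 (0.0568), 2 (0.0575) or 3 (0.116) against blood and without blood replicate 1 (0.0864), 2 (0.0850) or 3 (0.0622) against bone marrow. Against bone marrow the Hnrnpul2 call was also lost with no filter (0.0854) and in the 6-library fit (0.0614). Hnrnpu itself did not pass against blood (log2 fold change -0.50 ± 0.17 SE, edgeR adjusted p = 0.0566).

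The abundant Hnrnpk, which also acts in translation and mRNA stability, was at 286, 351 and 395 CPM in bone marrow replicates 1 to 3, 331, 306 and 353 CPM in blood and 299, 308 and 410.1 CPM in lung. All tissues overlapped, and its log2 fold changes were -0.06 ± 0.19, 0.04 ± 0.19 and -0.02 ± 0.19 (SE) in the 3 comparisons. On the log2(FPKM + 1) scale, which is not corrected for composition, the blood against bone marrow value was 0.31 and passed limma's test (adjusted p = 0.0342). With Hnrnpk, 11 of the 20 hnRNP genes passed in no comparison: Hnrnpa0, Hnrnpa1, Hnrnpd, Hnrnpdl, Hnrnpf, Hnrnph1, Hnrnph3, Hnrnpm, Hnrnpr and Hnrnpu, with log2 fold changes from -0.50 to 0.77 over the 3 comparisons. With the replicate number as a block, Hnrnpc (edgeR adjusted p = 0.0241) was called higher and Hnrnpf (0.0355) and Hnrnpu (0.0258) lower in lung against blood, and in lung against bone marrow Hnrnpa0 (0.0492) was called higher and Hnrnpf (0.0315) lower.

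**Figure D4:**
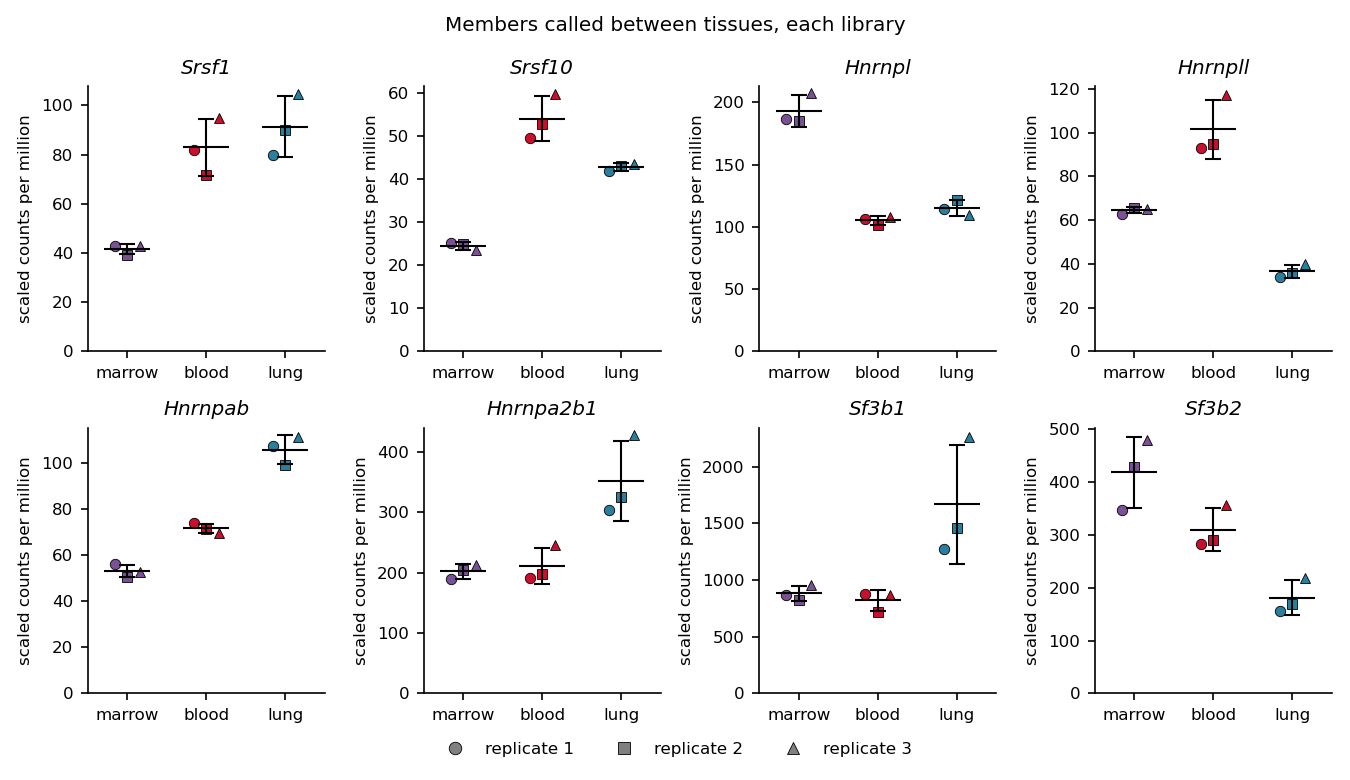
Level (CPM) of 8 members called in at least 1 comparison in each library; bars are the mean ± SD of 3 libraries per tissue. Hnrnpl is highest in bone marrow, Hnrnpll in blood, and Hnrnpab, Hnrnpa2b1 and Sf3b1 in lung, while Sf3b2 is lowest in lung.

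The subunits of SF3B, which all sit in 1 complex, moved in opposite directions between tissues. Sf3b1 was at 869, 826 and 956 CPM in bone marrow replicates 1 to 3, 878, 715 and 866 CPM in blood and 1277, 1457 and 2263 CPM in lung. Lung lay above the other tissues, which overlapped, and lung replicate 3, the library with the highest monocyte markers, was highest. The part of these markers was not tested. It rose 2.03-fold against blood (log2 fold change 1.02 ± 0.25 SE, edgeR adjusted p = 0.0142) and 1.88-fold against bone marrow (log2 fold change 0.91 ± 0.25 SE, edgeR adjusted p = 0.0177). Sf3b2, a large subunit that contacts the RNA near the branch point, was at 347, 429 and 479.5 CPM in bone marrow replicates 1 to 3, 283, 289.5 and 356 CPM in blood and 157, 169 and 218 CPM in lung. Lung was below every blood and bone marrow library. It fell 1.71-fold against blood (log2 fold change -0.77 ± 0.20 SE, edgeR adjusted p = 0.0187) and 2.31-fold against bone marrow (log2 fold change -1.21 ± 0.20 SE, edgeR adjusted p = 0.00168). The Sf3b1 level in lung was above that of blood by the same sign in the RSEM counts (1.08, edgeR adjusted p = 0.0318), and so was Sf3b2 below it (-0.72, 0.0329).

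Sf3b4, an RNA-binding subunit, was at 29.8, 30.8 and 33.4 CPM in bone marrow replicates 1 to 3, 28.9, 28.8 and 32.4 CPM in blood and 20.3, 23.2 and 19.8 CPM in lung. Lung was lower than both other tissues without overlap. It fell 1.42-fold against blood (log2 fold change -0.51 ± 0.12 SE, edgeR adjusted p = 0.0128) and 1.48-fold against bone marrow (log2 fold change -0.57 ± 0.12 SE, edgeR adjusted p = 0.00574). Sf3b3 was at 34.8, 30.1 and 24.1 CPM in bone marrow replicates 1 to 3, 49.0, 61.2 and 47.5 CPM in blood and 39.6, 38.4 and 21.5 CPM in lung. Blood was above both other tissues without overlap. It rose 1.77-fold from bone marrow to blood (log2 fold change 0.82 ± 0.25 SE, edgeR adjusted p = 0.0422). Sf3a2, of the smaller SF3A complex that joins SF3B to the U2 snRNP, was at 28.5, 31.2 and 30.8 CPM in bone marrow replicates 1 to 3, 35.0, 34.9 and 43.1 CPM in blood and 27.9, 29.2 and 25 CPM in lung. Lung replicates 1 to 3 were below all blood libraries and overlapped bone marrow. It fell 1.38-fold from blood to lung (log2 fold change -0.46 ± 0.13 SE, edgeR adjusted p = 0.0265). The other 4 SF3 genes, Sf3a1, Sf3a3, Sf3b5 and Sf3b6, passed in no comparison, with log2 fold changes from -0.49 to 0.47. Counted over 9 genes, 1 rose and none fell in blood against bone marrow (0 lower at an unadjusted p under 0.05, and 0 with DESeq2 or limma-voom), 1 rose and 3 fell in lung against blood, and 1 rose and 2 fell in lung against bone marrow. Over all genes 8.34% rose and 13.1% fell, 13.2% rose and 15.7% fell, and 15.6% rose and 22.6% fell.

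In lung against blood, the Sf3b1 call was lost without blood replicate 1 (0.0899), 2 (0.120) or 3 (0.0873), that of Sf3b2 without blood replicate 1 (0.0862), 2 (0.0874) or 3 (0.180) or lung replicate 1 (0.0622) or 2 (0.0640), that of Sf3b4 without blood replicate 1 (0.0511) or 3 (0.0917) and that of Sf3a2 without blood replicate 1 (0.0645), 2 (0.0607) or 3 (0.153) or lung replicate 1 (0.0605). In lung against bone marrow Sf3b1 was lost without bone marrow replicate 1 (0.0766), 2 (0.0951) or 3 (0.0529) or blood replicate 1 (0.0531), and in blood against bone marrow Sf3b3 without bone marrow replicate 1 (0.0575), 2 (0.114) or 3 (0.142), blood replicate 2 (0.0845) or 3 (0.0506) or lung replicate 2 (0.0526). The 6-library fits ended both Sf3b1 calls (0.0503 against blood and 0.0671 against bone marrow), no filter that of Sf3b2 against blood (0.0702), and limma on log2(FPKM + 1) that of Sf3b3 in blood (0.0541). Upper-quartile scaling ended the Sf3b4 calls against blood (0.0522) and bone marrow (0.112), the first was also lost in the RSEM counts (0.0638) and the second on log2(FPKM + 1) (0.183). The Sf3a2 call held in 2 of 8 alternative fits, limma-voom and the replicate block, and was lost with DESeq2 (0.0621), upper-quartile scaling (0.127), no filter (0.0628), limma on log2(FPKM + 1) (0.0518), the 6-library fit (0.0741) and the RSEM counts (0.115). With the replicate block Sf3b3 (0.0168) was called lower in lung against blood and Sf3b6 higher in lung against blood (0.0179) and against bone marrow (0.0417).

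Of the 3 U2AF genes 1 was called, in lung against bone marrow, where 15.6% of all genes rose and 22.6% fell. U2af2, which binds the polypyrimidine tract, was at 129, 126 and 140.1 CPM in bone marrow replicates 1 to 3, 128, 109 and 107 CPM in blood and 99.7, 96.0 and 103 CPM in lung. Lung was below both other tissues, which overlapped. It fell 1.32-fold from bone marrow to lung (log2 fold change -0.41 ± 0.13 SE, edgeR adjusted p = 0.0324), a call that held in 2 of 7 alternative fits (DESeq2 adjusted p 0.145) and in 1 of 9 fits leaving out a library, that without lung replicate 3 (0.0210, and 0.0678 to 0.201 without any other). U2af1, which reads the AG at the end of the intron, was at 36.7, 36.4 and 44.9 CPM in bone marrow replicates 1 to 3, 32.8, 24.2 and 17.9 CPM in blood and 28.4, 25.7 and 33.1 CPM in lung. Blood was below bone marrow without overlap, but the difference did not pass (log2 fold change -0.65 ± 0.22 SE, edgeR adjusted p = 0.0611). U2af1l4, a shorter paralogue of U2af1, was at 8.34 to 12.9 CPM in all libraries and was called lower in lung against bone marrow with the replicate block (0.04). No U2AF gene was called in blood against bone marrow or in lung against blood by edgeR, DESeq2 or limma-voom, with 1 and 0 at an unadjusted p under 0.05.

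Of the 11 tested Snrp genes 1 was called, in lung against bone marrow, where 15.6% of all genes rose and 22.6% fell. This was Snrpb, which encodes the Sm protein B. It was at 37.6, 36.8 and 43.5 CPM in bone marrow replicates 1 to 3, 50.1, 47.7 and 50.2 CPM in blood and 66.2, 56.2 and 57.2 CPM in lung. The 3 tissues did not overlap, with bone marrow lowest and lung highest. It rose 1.52-fold from bone marrow to lung (log2 fold change 0.61 ± 0.12 SE, edgeR adjusted p = 0.00414), and the steps from bone marrow to blood (adjusted p 0.0828) and from blood to lung (0.113) did not pass. With DESeq2 both steps passed (0.0458 and 0.0325). In edgeR's fit of all 9 libraries, with trimmed-mean scaling and no block, no Snrp gene was called in blood against bone marrow or in lung against blood. There 4 and 1 had an unadjusted p under 0.05. DESeq2 called 2 (Snrpb higher, Snrpd3 lower) and 1 (Snrpb), while limma-voom called 0 in both. With the replicate number as a block, Snrpd1 (log2 fold change 1.21, edgeR adjusted p = 0.0139) and Snrpf (1.22, 0.0188) were called higher in lung against blood, and Snrpg (0.67, 0.0206) in lung against bone marrow. The blocked fit also called Snrpb2 (-1.22, 0.0495) and Snrpc (-0.48, 0.0322) lower in blood against bone marrow.

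Several Snrp genes were low and differed between replicates of 1 tissue by more than 2 times. Snrpd1, of the Sm ring, was at 3.86, 3.88 and 1.89 CPM in bone marrow replicates 1 to 3, 2.79, 3.30 and 1.09 CPM in blood and 7.90, 7.75 and 1.94 CPM in lung. Snrpf, also of the ring, was at 5.34, 3.98 and 1.71 CPM in bone marrow replicates 1 to 3, 2.86, 4.10 and 0.793 CPM in blood and 9.22, 7.47 and 1.76 CPM in lung. In both genes lung replicates 1 and 2 were the highest of all libraries, and replicate 3 was the lowest library within each tissue. Snrpa1, a U2 snRNP protein, was at 2.79, 2.14 and 1.28 CPM in bone marrow replicates 1 to 3, 2.38, 3.13 and 1.56 CPM in blood and 6.97, 5.86 and 0.819 CPM in lung, with the same order in lung. In lung against blood all 11 log2 fold changes were above 0 with a median of 0.52, beside 0.05 over all genes, while the SE reached 0.73 for Snrpf. Replicate 3 was the lowest lung library for 9 of the 11. The same count over all genes was not made, so nothing particular to the Snrp genes is read from it. Replicate 3 also had the fewest genes with at least 10 reads in each tissue. They numbered 12458, 12770 and 12131 in bone marrow replicates 1 to 3, 12425, 12795 and 11642 in blood and 14584, 14106 and 12080 in lung.

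The B cell markers were also lowest in replicate 3 of each tissue, at 106, 60.9 and 29.5 CPM in bone marrow, 429, 413 and 69.2 CPM in blood and 462, 413 and 47.3 CPM in lung, and the fibroblast markers were lowest there in lung. Their part in the Snrp levels was not tested. Snrpa, the U1 snRNP protein that binds a stem-loop of U1 RNA, was at 13.3, 9.60 and 9.10 CPM in bone marrow replicates 1 to 3, 11.4, 7.73 and 3.87 CPM in blood and 13.0, 9.99 and 5.88 CPM in lung, and its tissues overlapped. Snrpc, of the same particle, was at 37.0, 38.9 and 45.2 CPM in bone marrow replicates 1 to 3, 32.7, 25.1 and 29.2 CPM in blood and 29.3, 27.4 and 37.2 CPM in lung. Blood was below bone marrow in Snrpc without overlap, at an edgeR adjusted p of 0.0652. The 10 Snrp genes without a call had log2 fold changes from -1.11 (Snrpb2, blood against bone marrow) to 1.29 (Snrpd1, lung against blood). Snrpn had at most 2 reads in a library, below the limit of 3 counts that a count of 0 allows.

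**Figure D5:**
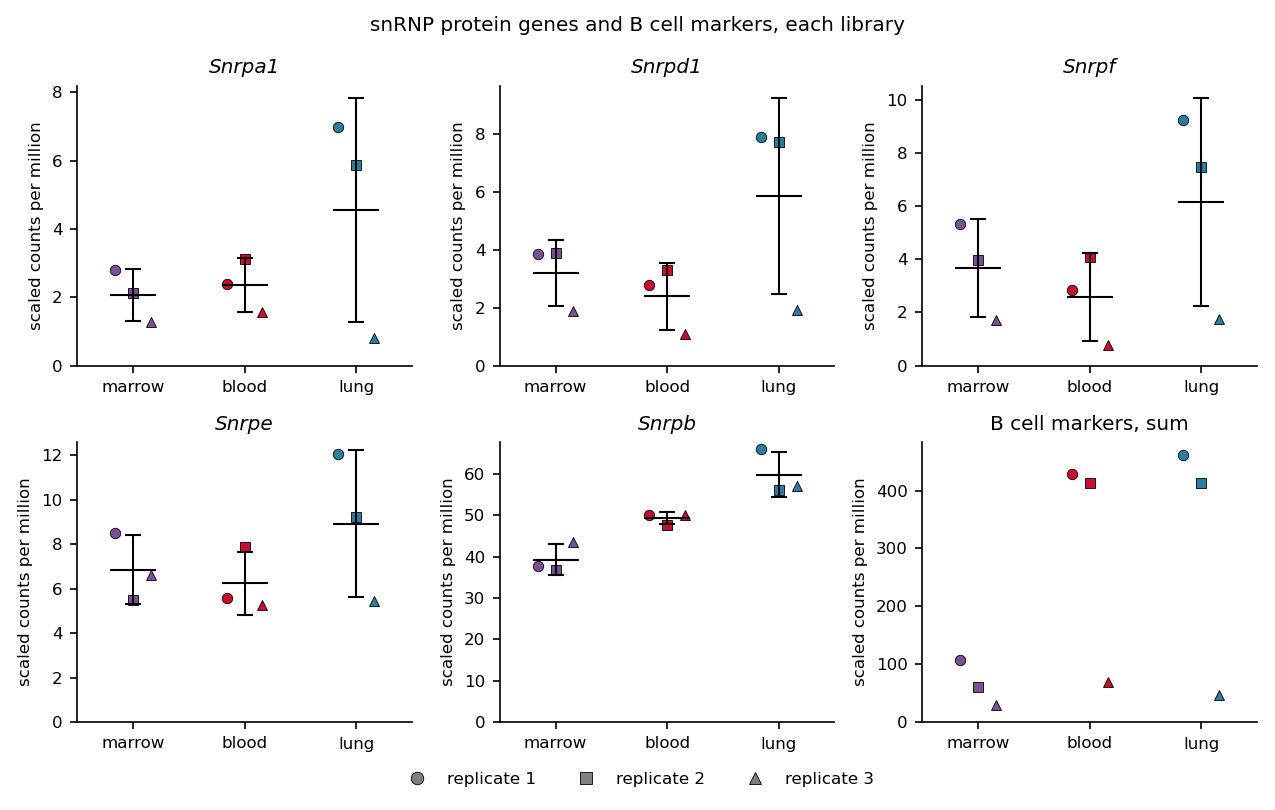
Level (CPM) of 5 Snrp genes and the summed level of 7 B cell markers in each library, with the replicate number as marker shape; bars in the gene panels are the mean ± SD of 3 libraries. Replicate 3 (triangles) is lowest in every tissue for Snrpa1, Snrpd1, Snrpf and the B cell markers, whereas Snrpb rises from bone marrow to lung.

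The wider splicing machinery, 127 genes in 6 lists, had calls in both directions as well. In blood against bone marrow 12 rose and 9 fell (16.5% called), in lung against blood 7 rose and 23 fell (23.6%), and in lung against bone marrow 16 rose and 24 fell (31.5%). Over all genes 8.34% rose and 13.1% fell, 13.2% rose and 15.7% fell, and 15.6% rose and 22.6% fell, so in each comparison the share of the 127 genes called in either direction was below that of all genes, and nothing particular to the machinery is read from it. The same shares over all genes stand beside the counts of each list below. Among 30 other snRNP and tri-snRNP genes 3 rose and 2 fell in blood against bone marrow. Snrnp70, the U1 snRNP protein that SR proteins contact, was at 181, 203 and 208 CPM in bone marrow replicates 1 to 3, 302, 367 and 441 CPM in blood and 295, 295 and 361 CPM in lung. It rose in blood (log2 fold change 0.91 ± 0.18 SE, edgeR adjusted p = 0.00877) and lung (log2 fold change 0.68 ± 0.18 SE, edgeR adjusted p = 0.0177) against bone marrow, without overlap. The first call was lost without bone marrow replicate 1 (0.0529) or 2 (0.0511) or blood replicate 2 (0.0629) or 3 (0.0785), the other without bone marrow replicate 1 (0.0926), 2 (0.0819) or 3 (0.0552) or blood replicate 2 (0.0572), and also in the 6-library fit (0.0515). Usp39, which is needed to assemble the tri-snRNP, went the other way, with a log2 fold change of -1.14 ± 0.16 SE in blood (edgeR adjusted p = 0.00156) and -1.69 ± 0.16 SE in lung (0.000105) against bone marrow. Snrnp35, of the minor spliceosome, was at 0.715, 1.2 and 1.23 CPM in bone marrow replicates 1 to 3, 1.2, 1.55 and 1.25 CPM in blood and 4.30, 4.64 and 7.08 CPM in lung. It rose in lung against bone marrow (log2 fold change 2.35 ± 0.38 SE, edgeR adjusted p = 0.00147), without overlap. Over the list, 2 rose and 7 fell in lung against blood, and 2 rose and 4 fell in lung against bone marrow.

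Among 25 genes of the catalytic spliceosome, none rose and 3 fell in blood against bone marrow, 1 rose and 6 fell in lung against blood, and 1 rose and 5 fell in lung against bone marrow. The 1 that rose was Isy1, a protein of the first catalytic step, at 22.7, 15.9 and 17.9 CPM in bone marrow replicates 1 to 3, 15.1, 14.2 and 12.4 CPM in blood and 281, 207 and 433 CPM in lung. Lung lay far above both other tissues in all 3 libraries (log2 fold change 4.46 ± 0.30 SE, edgeR adjusted p = 0.000140 against blood), and the RSEM counts placed it at 308 to 423 CPM in lung beside 13.1 to 19.9 in blood. Plrg1, of the Prp19 complex, was at 30.3, 30.2 and 29.7 CPM in bone marrow replicates 1 to 3, 22.3, 16.6 and 15.3 CPM in blood and 11.4, 9.93 and 11 CPM in lung. It was highest in bone marrow and lowest in lung without overlap (log2 fold change -1.48 ± 0.16 SE, edgeR adjusted p = 0.000181 in lung against bone marrow).

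Of 20 exon junction and RS-domain cofactors, 2 rose and 1 fell in blood against bone marrow, 2 rose and 4 fell in lung against blood, and 2 rose and 3 fell in lung against bone marrow. Luc7l3, a U1-associated RS-domain protein, rose in blood (log2 fold change 1.35 ± 0.20 SE, edgeR adjusted p = 0.00216). Tra2a, an SR-like activator, was at 151, 141 and 181 CPM in bone marrow replicates 1 to 3, 241, 84.1 and 73.6 CPM in blood and 348, 364 and 520.3 CPM in lung. Lung was highest without overlap, and blood replicate 1 again exceeded blood replicates 2 and 3. Tra2a rose in lung against blood (log2 fold change 1.63 ± 0.43 SE, edgeR adjusted p = 0.0203), a call lost without blood replicate 2 (0.078) or 3 (0.0866), in the 6-library fit (0.0578) and in the RSEM counts (0.0674).

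Of 11 SR protein kinases, phosphatases and importers, 3 rose and none fell in blood against bone marrow, none rose and 2 fell in lung against blood, and 2 rose and 4 fell in lung against bone marrow. Of 26 other splicing regulators, 3 rose and 3 fell in blood against bone marrow, 2 rose and 2 fell in lung against blood, and 8 rose and 5 fell in lung against bone marrow. Tardbp, a repressor of cryptic exons, rose in lung against bone marrow (log2 fold change 1.12 ± 0.20 SE, edgeR adjusted p = 0.00246), while Mbnl3, a muscleblind protein, fell (log2 fold change -1.30 ± 0.19 SE, edgeR adjusted p = 0.000820), and so did Ptbp2, the neuronal form of the polypyrimidine tract-binding protein (log2 fold change -1.12 ± 0.15 SE, edgeR adjusted p = 0.000470).

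Of 15 genes for snRNP assembly, 1 rose and none fell in blood against bone marrow, none rose and 2 fell in lung against blood, and 1 rose and 3 fell in lung against bone marrow. Smn1, which loads Sm rings onto spliceosomal RNA, was at 17.4, 20.2 and 26.5 CPM in bone marrow replicates 1 to 3, 15.8, 15.9 and 18.3 CPM in blood and 6.97, 8.91 and 7.45 CPM in lung. Lung was below both other tissues without overlap (log2 fold change -1.10 ± 0.19 SE, edgeR adjusted p = 0.00336 against blood). Of the 15 calls named from these lists, 12 passed in every fit run. These 15 were picked from the 21, 30 and 40 calls of the 3 comparisons by a rule that favoured large changes. Their stability is therefore not that of the lists, and it cannot be set against that of the members. In the directions of these lists without an edgeR call, 4 SR kinase list genes were lower in blood and 1 higher in lung against blood at an unadjusted p under 0.05, DESeq2 called 1 in each, and the other directions had 0 by either measure.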

How the data were processed

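Polyadenylated RNA of sorted neutrophils from 3 tissues was sequenced in 9 libraries. The authors deposited whole-number read counts and FPKM per RefSeq transcript for all 9, and, for blood and lung, RSEM expected counts per gene, per the file headers. Bowtie2, STAR, StringTie 2.1.3b, RSEM, DESeq2 and build mm10 are named in the submitters' processing notes, without their roles, and the labels call the library kit both standard and stranded. The table's name calls the counts normalized, but they are whole numbers with differing totals, and their median-of-ratios size factors still ranged from 0.786 to 1.27. They were used as counts, and scaling by another method was not tested.

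Members were found by gene symbol, and counts were summed by gene. They and the gene lists were chosen with earlier results of these data known. Genes were filtered by edgeR's filterByExpr, and libraries were TMM-scaled and tested with edgeR 4.0.16 (robust quasi-likelihood F test, tissue means, all 9 libraries, two-sided), with Benjamini-Hochberg adjustment over 13510 genes and a threshold of 0.05. Where a parenthesis gives only a number for a member without a library or under another fit, it is the adjusted p of that fit. Standard errors are those of the log2 fold change. Transcript usage was tested with edgeR's diffSpliceDGE over 9391 transcripts. Expected counts were rounded to whole numbers. The fits were also run on simulated independent libraries, with a spread set in advance for the usage test. No result here rests on that run.

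The rule for named members was an adjusted p under 0.05 and at least 5 CPM in the higher tissue. Per-library values were also given for members that passed nothing. Alternatives were DESeq2 1.42.0, upper-quartile scaling, no filter, limma 3.58.1 (voom, or log2(FPKM + 1) with a pseudocount of 1), 6-library fits, the RSEM counts, a replicate block, and each library left out. The replicate numbers were read as possible pairs where all 3 same-numbered pairs correlated over 0.1 in their deviations from tissue means. This held for lung with blood (0.127 to 0.518) and lung with bone marrow (0.153 to 0.186), and not for blood with bone marrow (0.0489 to 0.382). Pairs with different numbers ranged from -0.504 to 0.453, the highest being blood replicate 2 with lung replicate 1. The strongest partner of a library in another tissue carried the same number in 13 of 18 cases. Passing 0.1 therefore does not establish pairing. This reading for each comparison was made after the calls with and without the block were known. The main calls are from the fit without the block in every comparison. Blocked values are an alternative, from 1 fit of all 9 libraries. A count of 0 allows up to 3 reads, 0.0528 to 0.0714 CPM, for counting error only. The replicates are labelled as biological, and p-values measure the spread between these libraries. Intervals and tests do not cover how reads were assigned between near-identical genes. Cassette exons and junction sequences came from GENCODE M21 (GRCm38, the assembly of mm10). Protein sequences were not used here.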

Additional observations from a re-analysis of the deposited data

How the results depend on the processing

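The counts of called members moved with the scaling and the fit, and the causes were not tested. Counts over all genes moved as well, and are given above for upper-quartile scaling and DESeq2. With upper-quartile scaling 9 members were higher in blood and 9 higher and 4 lower in lung against blood, and 17 were higher and 4 lower in lung against bone marrow. DESeq2 gave 2 lower in blood against bone marrow, 5 lower in lung against blood and 14 higher in lung against bone marrow. On log2(FPKM + 1) with limma, 13 members were higher and 0 lower in blood against bone marrow (1 lower at an unadjusted p under 0.05), and Hnrnpk turned from -0.06 to 0.31. That fit called 2261 higher and 1107 lower over all 13510 genes. Without the low-count filter 3 were lower in lung against blood and 4 in lung against bone marrow, beside 1581 and 2217 of all 18656 genes. In fits of the 6 libraries compared, 12 were higher in blood against bone marrow, 3 were higher and 4 lower in lung against blood, and 4 were lower in lung against bone marrow. Over all genes these fits called 2164 of 12484 higher, 1313 higher and 1533 lower of 13052, and 2327 of 13109 lower. The RSEM counts gave 3 lower in lung against blood, beside 1485 of all 12020 genes.

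Leaving out 1 library gave 2 to 5 members higher and 0 to 4 lower in blood against bone marrow, 0 to 8 higher and 1 to 10 lower in lung against blood, 5 to 10 higher and 4 to 11 lower in lung against bone marrow, and 9 to 24 differing among tissues. The counts of 0 came without blood replicate 2 (4 lower in blood at an unadjusted p under 0.05 in edgeR's fit, and 5 higher in lung against blood) or 3 (6 higher in lung against blood). Each of these fits has fewer samples. Over all genes they called 510 to 1589 higher and 645 to 2376 lower in blood against bone marrow. In lung against blood they called 956 to 2899 higher and 966 to 2953 lower. In lung against bone marrow they called 961 to 3339 higher and 2169 to 3645 lower, and 4789 to 8397 genes differed among tissues. The usage change of the coding Srsf3 transcript ranged from -2.20 to -1.75, with 0 to 1 member transcripts called. Of the single-member values, 944 stayed on the same side of the threshold, 144 no longer passed, 8 newly passed and 1 reversed. A change of sign was counted as reversed only where the main or the alternative fit passed. Uncalled values that changed sign are therefore among the 944.

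With the replicate block, 4 members were lower and 6 higher in blood against bone marrow (Sf3b2 0.0283, Snrpb2 0.0495 and Snrpc 0.0322 newly lower, Hnrnpr 0.0221 newly higher). Over all 13510 genes the block gave 2358 lower and 1632 higher there, and 7286 differing among tissues. Whether the numbers pair the libraries is not established in any comparison. With the block 9 were higher in lung against blood, 26 differed among tissues, and the Srsf3 usage change was -1.98 (edgeR adjusted p = 0.0261). The block ended no call. At a depth of 42045548 reads or more, Srsf12 and Snrpn had too few reads to be tested. Several tested Snrp genes were low as well, and the limit that depth sets on them was not tested.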
